A study of Mus musculus with 64 samples.

Results

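The livers described here were taken at zeitgeber time 12 (ZT12, 12 h after lights on, when the lights go off) from mice in which Acsf3 had been knocked down and from their controls. The members are 8 of the 64 libraries of the series, 4 labelled sh-Acsf3 and 4 labelled sh-Ctl at ZT12. They were taken by their labels, with earlier results of these data known. All 64 come from male C57BL/6J mice with free access to food, and the 16 groups cross 2 treatments with 8 times of day spaced 3 h apart. The sh-Acsf3 mice had received an AAV8 vector (a virus capsid that delivers genes mainly to hepatocytes) carrying a short hairpin RNA against Acsf3, and the sh-Ctl mice a control hairpin, 4 weeks before the livers were collected. Both groups therefore carry the vector and a hairpin, and livers without either were not analysed here. The submitters call the knockdown liver-specific. The promoter of the hairpin, the target site and the age of the mice are not given in the sources used here. The labels number the replicates without saying that each is a separate animal, so p-values measure the spread between samples. That spread was estimated within the 16 groups of all 64 libraries and not from the 8 alone.

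Acsf3 encodes acyl-CoA synthetase family member 3, a mitochondrial enzyme that joins malonate to coenzyme A. The malonyl-CoA it makes inside mitochondria feeds mitochondrial fatty acid synthesis, which supplies lipoic acid to several dehydrogenases, and is a donor for malonylation of lysines. Lights off is when mice begin their main feeding period, and many liver genes of the circadian clock and of lipid and glucose metabolism are near a turning point then. The liver also holds stellate cells, which make collagen, sinusoidal endothelial cells, resident macrophages called Kupffer cells, lymphocytes and bile duct cells. In these bulk samples, more cells of a type and more RNA per cell cannot be told apart.

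Expression was measured by BRB-seq, which counts unique molecular identifiers (UMIs) at the 3′ ends of transcripts. Levels are given as CPM, the UMIs of a gene per 1 M UMIs of the library after TMM scaling of the totals. They are not corrected for length and serve mainly to compare samples. Comparisons of levels between genes are rough. Totals at ZT12 were 3.10 to 4.47 M UMIs in sh-Ctl and 1.72 to 2.77 M in sh-Acsf3, and 13187 to 14817 genes had at least 1 UMI. Treatment and depth thus do not overlap at ZT12. Albumin, the main product of hepatocytes, lay at 78410, 33890, 63470 and 99960 CPM in sh-Ctl and 83020, 71780, 85620 and 82160 CPM in sh-Acsf3.

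Of these 8 libraries, 3 stood apart. The sh-Ctl replicate 2 was high in serum amyloid A1 (Saa1, an acute-phase protein), at 30.2, 4204, 44.5 and 47.7 CPM in sh-Ctl and 22.2, 113, 41.3 and 58.9 CPM in sh-Acsf3. The sh-Acsf3 replicate 2 held RNA of pancreas enzymes: the summed level of the 27 exocrine pancreas markers listed was 46.6, 13.5, 21.3 and 23.4 CPM in sh-Ctl and 5.97, 3194, 32.1 and 17.5 CPM in sh-Acsf3. The sh-Acsf3 replicate 1 was low in genes of hepatocytes around the central vein, whose summed level over 18 genes was 4953, 5856, 4751 and 4694 CPM in sh-Ctl and 2199, 5520, 4788 and 5061 CPM in sh-Acsf3. That library was also the lowest of the 8 in other hepatocyte sums, such as bile acid genes (2598 CPM), cytochrome P450 and conjugation enzymes (10840 CPM) and coagulation and complement (9027 CPM). It was not the lowest in the sums of periportal genes (6783 CPM) or hepatocyte identity genes (121700 CPM). Its TMM factor, 1.229, was the highest of the 64 libraries. It had the highest level of the 4 sh-Acsf3 libraries in 81 of the 117 genes called higher at ZT12 (69.2%, against 26.8% of all tested genes). The sh-Acsf3 replicate 2 had the lowest of the 4 in 66 of them (56.4%, against 22.0% of all tested genes).

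**Figure D1:**
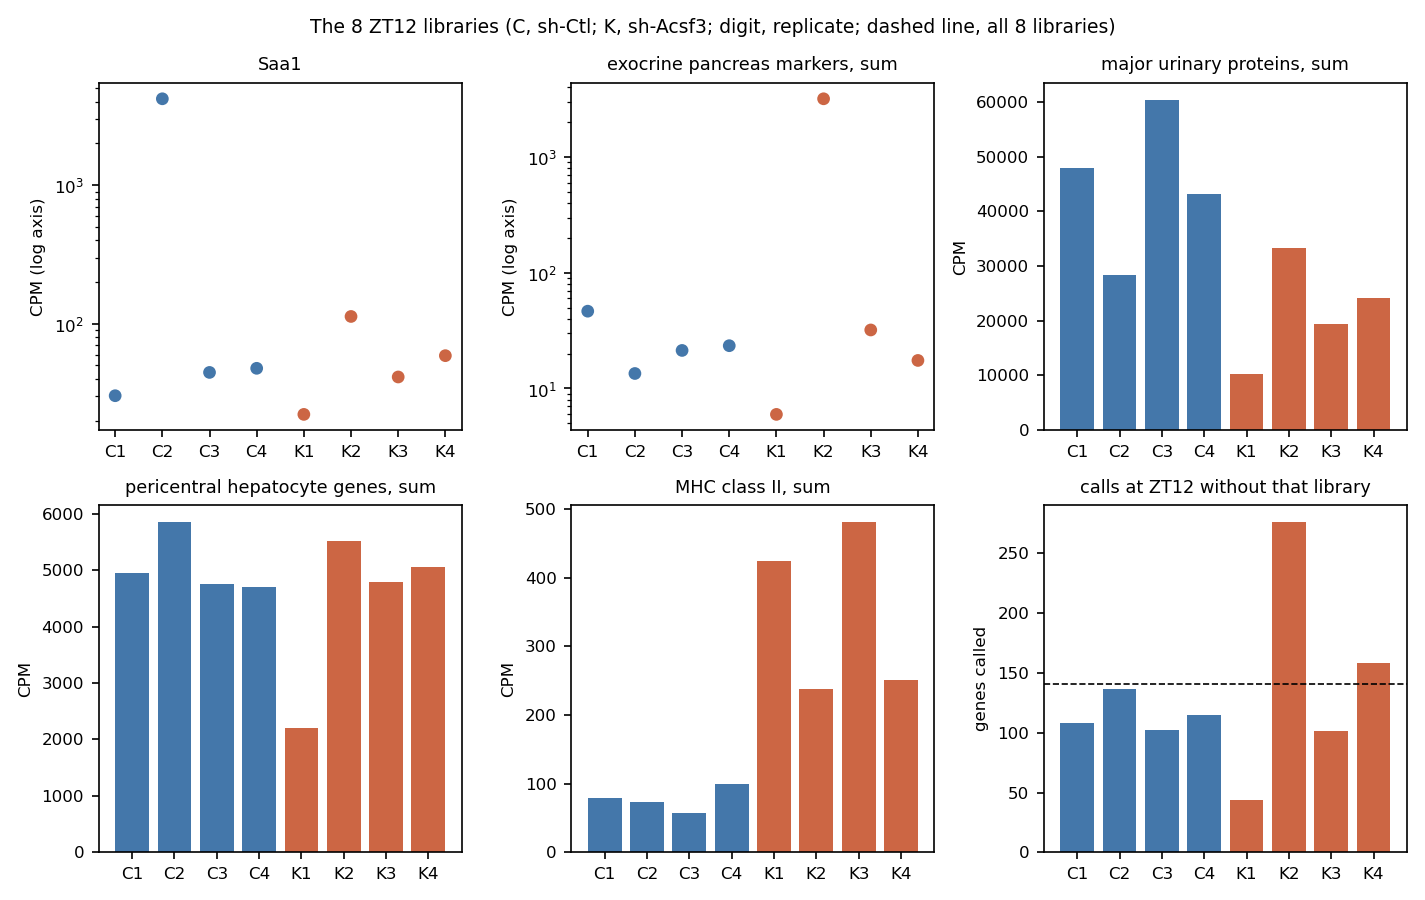
Each panel shows 1 quantity in the 8 ZT12 libraries (C, sh-Ctl; K, sh-Acsf3; the digit is the replicate): the CPM of Saa1 and of the summed exocrine pancreas markers on log axes, the summed CPM of the major urinary proteins, pericentral genes and MHC class II genes as bars from 0, and the number of genes called at ZT12 when that library is left out. C2 alone is high in Saa1, K2 alone in pancreas markers, K1 is lowest in pericentral genes and major urinary proteins, and the number of calls falls to 44 without K1 and rises to 276 without K2.

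The knockdown itself was checked first. Acsf3 (ENSMUSG00000015016) was measured at 10.8, 14.7, 12.2 and 13.4 CPM in sh-Ctl and 6.40, 4.73, 2.72 and 3.50 CPM in sh-Acsf3. The groups do not overlap, and the highest sh-Acsf3 value belongs to replicate 1. The level fell to 35.3% of control, a log2 difference (sh-Acsf3 minus sh-Ctl, ± SE) of -1.50 ± 0.33 with an edgeR adjusted p of 0.00628, from 185 control UMIs and 40 after knockdown. Over the other 7 times the mean difference was -2.34, and the ZT12 difference lay 0.84 ± 0.38 above it, with an unadjusted p of 0.0319 and an adjusted p of 1, so a weaker knockdown at ZT12 was not shown. Leaving out any 1 library kept the call, with differences from -1.74 to -1.37.

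Which genes followed the knockdown at lights off was tested over 10097 genes. With edgeR's quasi-likelihood test and an adjusted p under 0.05, 141 differed (1.40% of those tested), with 117 rises (1.16%) and 24 falls (0.238%) after knockdown. The rises were the larger changes: 101 of the 117 were at least 2-fold, against 7 of the 24 falls, and the median log2 difference was 1.45 among rises and -0.74 among falls. The rises were also the weaker genes, with a median sh-Ctl level of 4.48 CPM against 44.3 CPM for the falls. In 111 of the 141 the 2 groups did not overlap, as they did not in 6.82% of all tested genes (3.86% with sh-Acsf3 higher and 2.96% with it lower). The genes with the smallest p were Ccl5, Sparc, Bgn, Dcn and Col1a2, a chemokine of cytotoxic lymphocytes and 4 genes of the extracellular matrix. Of the calls, 37 passed in each of the 8 fits that left out 1 library, among them Acsf3, 11 genes of the matrix list described below, 3 MHC class II genes, Ccl4, Ccl5, Nkg7, Trbc2, Vcam1 and Ccnd1 among the rises and Cyp2c37, Dct, Kalrn and St6gal1 among the falls. The number of calls was 44 (34 higher, 10 lower) without sh-Acsf3 replicate 1, all among the 141, and 276 (203 higher, 73 lower) without sh-Acsf3 replicate 2, of which 136 were among the 141. A fit to the 8 ZT12 libraries alone gave 64, and a fit without the filter on low counts gave 453, of which 45 were genes that the filter removes.

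**Figure D2:**
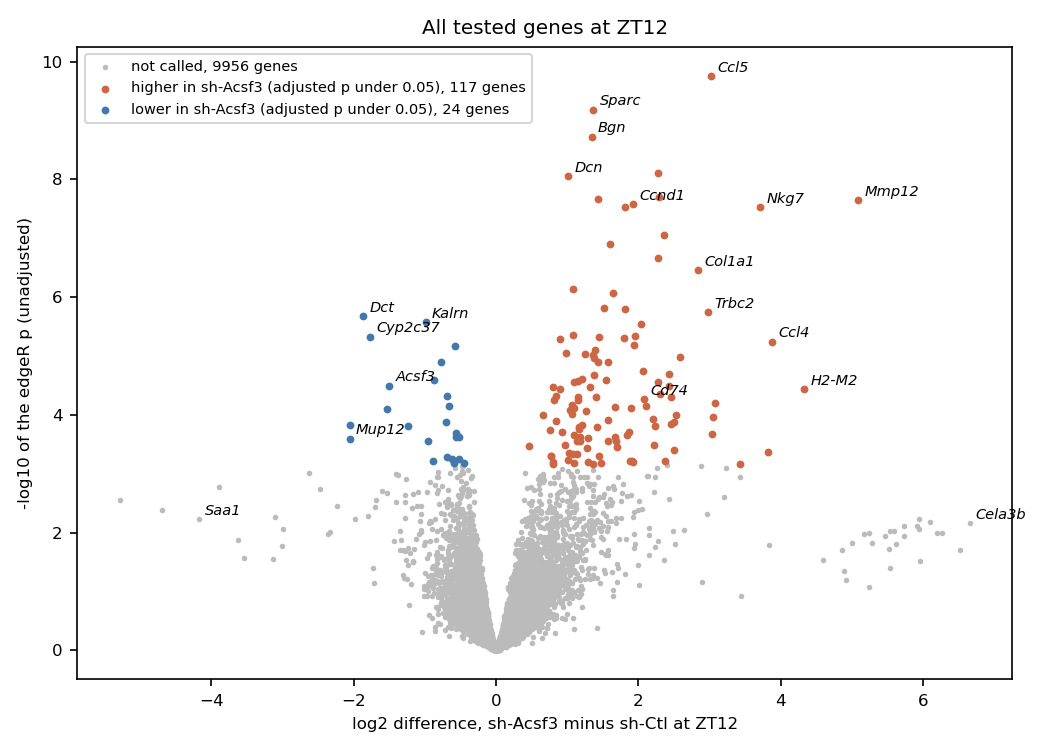
Each point is 1 of the 10097 tested genes, with the log2 difference between sh-Acsf3 and sh-Ctl at ZT12 on the x axis and the -log10 of its unadjusted edgeR p on the y axis. The 117 called rises (red) reach farther from 0 and higher than the 24 called falls (blue), while Saa1 on the left and pancreas genes such as Cela3b on the right, each far from 0 through 1 library, are not called.

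Genes of the extracellular matrix made up the largest group of rises. Collagen fibres are built from type I and type III chains, type IV collagen forms basement membranes, type VI collagen makes fine filaments near cells, and small proteoglycans bind and space the fibres. Of 26 listed genes 24 were tested, 18 rose and none fell, with a median log2 difference of 1.48 against -0.0013 over all tested genes. Col1a1 (chr11:94936224-94953042, plus strand), a chain of type I collagen, lay at 3.31, 5.21, 2.51 and 4.63 CPM in sh-Ctl and 52.9, 15.2, 22.3 and 22.1 CPM in sh-Acsf3. Each sh-Acsf3 library was above each sh-Ctl library, and replicate 1 was the highest. The log2 difference was 2.84 ± 0.48 (edgeR adjusted p 2.36e-04), and it was 2.31 without that library. Its partner Col1a2 lay at 7.95, 9.80, 6.59 and 11.2 CPM in sh-Ctl and 64.0, 26.4, 46.2 and 36.7 CPM in sh-Acsf3, again with no overlap (2.28 ± 0.33, edgeR adjusted p 1.75e-05). Type III collagen, Col3a1 (chr1:45311538-45349706, plus strand), was at 15.9, 15.0, 10.7 and 18.0 CPM in sh-Ctl and 134, 30.8, 61.4 and 67.0 CPM in sh-Acsf3, with replicate 2 the lowest and replicate 1 the highest of sh-Acsf3 (2.29 ± 0.34, edgeR adjusted p 2.69e-05).

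Sparc, a matrix glycoprotein that binds collagen, had the smallest p of the group. It was at 48.1, 35.2, 38.9 and 56.7 CPM in sh-Ctl and 154, 69.7, 114 and 127 CPM in sh-Acsf3, and the groups did not overlap (1.37 ± 0.19, edgeR adjusted p 3.29e-06). The small proteoglycans behaved alike: biglycan (Bgn) was at 26.1, 18.7, 21.6 and 21.0 CPM in sh-Ctl and 72.5, 38.2, 61.4 and 51.3 CPM in sh-Acsf3 (1.34 ± 0.19, edgeR adjusted p 6.29e-06), and Prelp, a relative outside the list, at 15.9, 11.3, 15.1 and 15.8 CPM in sh-Ctl and 30.3, 24.7, 38.0 and 32.0 CPM in sh-Acsf3 (1.09 ± 0.20, edgeR adjusted p 4.66e-04). Lumican (Lum), another small proteoglycan, was at 4.42, 5.21, 3.77 and 5.18 CPM in sh-Ctl and 31.6, 7.44, 15.2 and 11.7 CPM in sh-Acsf3 (1.82 ± 0.34). The call of Lum ended without sh-Acsf3 replicate 1 (log2 1.25, adjusted p 0.100). Of the type VI chains, Col6a3 was at 1.77, 2.45, 2.20 and 3.00 CPM in sh-Ctl and 23.0, 6.42, 8.15 and 7.58 CPM in sh-Acsf3 (2.27 ± 0.39, edgeR adjusted p 1.56e-04) and was decided most by replicate 1, without which the difference was 1.62. Col6a1 was at 2.21, 3.06, 0.941 and 2.73 CPM in sh-Ctl and 8.96, 3.72, 13.6 and 9.90 CPM in sh-Acsf3 (1.93 ± 0.39, edgeR adjusted p 0.00209). Col14a1, which decorates collagen fibres, was at 19.2, 13.8, 19.8 and 16.1 CPM in sh-Ctl and 56.7, 31.1, 54.9 and 45.5 CPM in sh-Acsf3 (1.44 ± 0.22, edgeR adjusted p 2.69e-05). Both chains of basement membrane collagen rose: Col4a1 was at 9.27, 11.6, 13.5 and 13.9 CPM in sh-Ctl and 36.7, 21.6, 20.1 and 23.3 CPM in sh-Acsf3 (1.09 ± 0.22) and Col4a2 at 3.75, 7.04, 4.08 and 4.91 CPM in sh-Ctl and 12.8, 7.78, 12.0 and 16.9 CPM in sh-Acsf3 (1.29 ± 0.33). The call of Col4a1 ended without sh-Acsf3 replicate 1 (log2 0.85, adjusted p 0.0783). The call of Col4a2 ended without any 1 of sh-Ctl replicates 1, 3 and 4 and sh-Acsf3 replicates 1, 3 and 4 (log2 1.12 to 1.29, adjusted p 0.0603 to 0.130).

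Serpinh1, the collagen chaperone of the endoplasmic reticulum, was at 4.20, 2.14, 5.02 and 4.91 CPM in sh-Ctl and 15.4, 7.78, 14.7 and 9.90 CPM in sh-Acsf3 (1.52 ± 0.29, edgeR adjusted p 8.47e-04). Adamts2, which trims procollagen and is outside the list, was at 1.10, 2.14, 1.25 and 1.91 CPM in sh-Ctl and 8.53, 5.07, 5.43 and 7.58 CPM in sh-Acsf3 (2.04 ± 0.40, edgeR adjusted p 0.00125). Timp2, an inhibitor of matrix metalloproteinases, was at 7.29, 7.04, 4.71 and 10.4 CPM in sh-Ctl and 20.9, 12.5, 22.8 and 15.2 CPM in sh-Acsf3 (1.25 ± 0.26, edgeR adjusted p 0.00265). In all of these each sh-Acsf3 library lay above each sh-Ctl library. The remaining rises of the list were Col5a2 (2.11 ± 0.50), fibrillin Fbn1 (2.37 ± 0.66), the gelatinase Mmp2 (2.50 ± 0.67) and the basement membrane protein Nid1 (1.16 ± 0.27). The call of Col5a2 ended without any 1 of sh-Ctl replicate 1 and sh-Acsf3 replicate 1 (log2 1.74 to 1.77, adjusted p 0.0772 to 0.221). The call of Fbn1 ended without any 1 of sh-Ctl replicates 1, 2, 3 and 4 and sh-Acsf3 replicates 1 and 4 (log2 1.53 to 2.78, adjusted p 0.0561 to 0.545). The call of Mmp2 ended without any 1 of sh-Ctl replicates 1 and 3 and sh-Acsf3 replicates 1 and 3 (log2 1.83 to 2.50, adjusted p 0.0650 to 0.418). The call of Nid1 ended without any 1 of sh-Ctl replicate 2 and sh-Acsf3 replicate 1 (log2 0.76 to 0.91, adjusted p 0.0762 to 0.341). Crispld2, a secreted protein outside the list, was among the weakest genes called, at 0.221, 0.613, 0 and 1.09 CPM in sh-Ctl and 2.99, 2.71, 2.72 and 4.08 CPM in sh-Acsf3 (2.58 ± 0.54, edgeR adjusted p 0.00288), and at such levels a library holds only a few UMIs. Without sh-Acsf3 replicate 1, 11 matrix genes rose, and without sh-Acsf3 replicate 2, 20 of 25 tested did. The matrix list's summed level hides the group, because fibronectin (Fn1), which hepatocytes secrete, takes most of it: Fn1 was at 791, 1196, 713 and 857 CPM in sh-Ctl and 523, 759.9, 751 and 783 CPM in sh-Acsf3 (-0.34 ± 0.14, edgeR adjusted p 0.227), with the highest value in the sh-Ctl library high in Saa1.

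Markers of stellate cells and fibroblasts, the liver's collagen makers, were also higher. All 18 tested of 20 listed had a difference above 0, 4 passed the test, and the median was 0.97. Decorin (Dcn, chr10:97479609-97518143, plus strand) was at 153, 96.5, 116 and 126 CPM in sh-Ctl and 326, 218, 227 and 226 CPM in sh-Acsf3, the strongest of them (1.02 ± 0.15, edgeR adjusted p 1.75e-05), and passed in each fit that left out 1 library. Cytoglobin (Cygb), which marks stellate cells, was at 6.40, 3.98, 5.02 and 8.72 CPM in sh-Ctl and 24.7, 12.2, 15.8 and 9.90 CPM in sh-Acsf3 (1.36 ± 0.28, edgeR adjusted p 0.00273). The call of Cygb ended without sh-Acsf3 replicate 1 (log2 1.04, adjusted p 0.132). Vimentin (Vim) was at 23.2, 29.1, 25.4 and 29.4 CPM in sh-Ctl and 76.4, 40.2, 58.1 and 55.4 CPM in sh-Acsf3 (1.10 ± 0.24). The call of Vim ended without sh-Acsf3 replicate 1 (log2 0.93, adjusted p 0.0955). Reelin (Reln), another stellate cell gene, was at 16.3, 8.58, 9.72 and 10.9 CPM in sh-Ctl and 29.4, 17.6, 16.3 and 25.1 CPM in sh-Acsf3 (0.93 ± 0.23). The call of Reln ended without any 1 of sh-Ctl replicates 2, 3 and 4 and sh-Acsf3 replicates 1 and 4 (log2 0.75 to 0.90, adjusted p 0.0568 to 0.265). The summed level of the stellate list was 509, 399, 403 and 491 CPM in sh-Ctl and 871, 613, 709 and 642 CPM in sh-Acsf3, so the groups did not overlap. Without sh-Acsf3 replicate 1 the median was 0.75, and Dcn was the gene that still passed.

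In the TGF-beta list 1 of 14 tested genes passed, with a median of 0.25, none without sh-Acsf3 replicate 1 and 2 without sh-Acsf3 replicate 2. That gene was Tgfbi, a matrix protein induced by TGF-beta, at 12.8, 16.5, 8.78 and 17.4 CPM in sh-Ctl and 32.9, 17.6, 29.4 and 24.5 CPM in sh-Acsf3 (0.89 ± 0.20). The call of Tgfbi ended without any 1 of sh-Ctl replicate 3 and sh-Acsf3 replicate 1 (log2 0.73 to 0.75, adjusted p 0.0664 to 0.131). The ligand Tgfb1 itself was at 0.883, 0.613, 0.314 and 0.545 CPM in sh-Ctl and 1.28, 1.69, 4.89 and 3.50 CPM in sh-Acsf3 (2.05 ± 0.69, edgeR adjusted p 0.120). Outside that list, 4 further calls have a known link to this family of ligands, of which Gdf10, Pmepa1 and Adamtsl2 were chosen after their values were seen. Gdf2 encodes BMP9, a ligand that endothelial cells sense, and was at 4.42, 4.29, 3.77 and 5.45 CPM in sh-Ctl and 10.7, 8.12, 16.3 and 15.7 CPM in sh-Acsf3 (1.45 ± 0.29, edgeR adjusted p 0.00175). Gdf10, another ligand of the TGF-beta family, was at 2.87, 2.76, 3.77 and 3.54 CPM in sh-Ctl and 7.68, 6.76, 15.2 and 11.1 CPM in sh-Acsf3 (1.60 ± 0.27, edgeR adjusted p 9.89e-05). Pmepa1, a target and inhibitor of TGF-beta signalling, was at 2.65, 4.29, 2.51 and 4.09 CPM in sh-Ctl and 13.2, 9.13, 11.4 and 8.74 CPM in sh-Acsf3 (1.65 ± 0.30, edgeR adjusted p 5.10e-04). Adamtsl2, a matrix protein that binds the latent TGF-beta complex, was at 1.55, 0.919, 1.25 and 1.36 CPM in sh-Ctl and 5.12, 4.40, 5.98 and 5.24 CPM in sh-Acsf3 (1.96 ± 0.39, edgeR adjusted p 0.00175). For each of these the groups did not overlap.

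**Figure D3:**
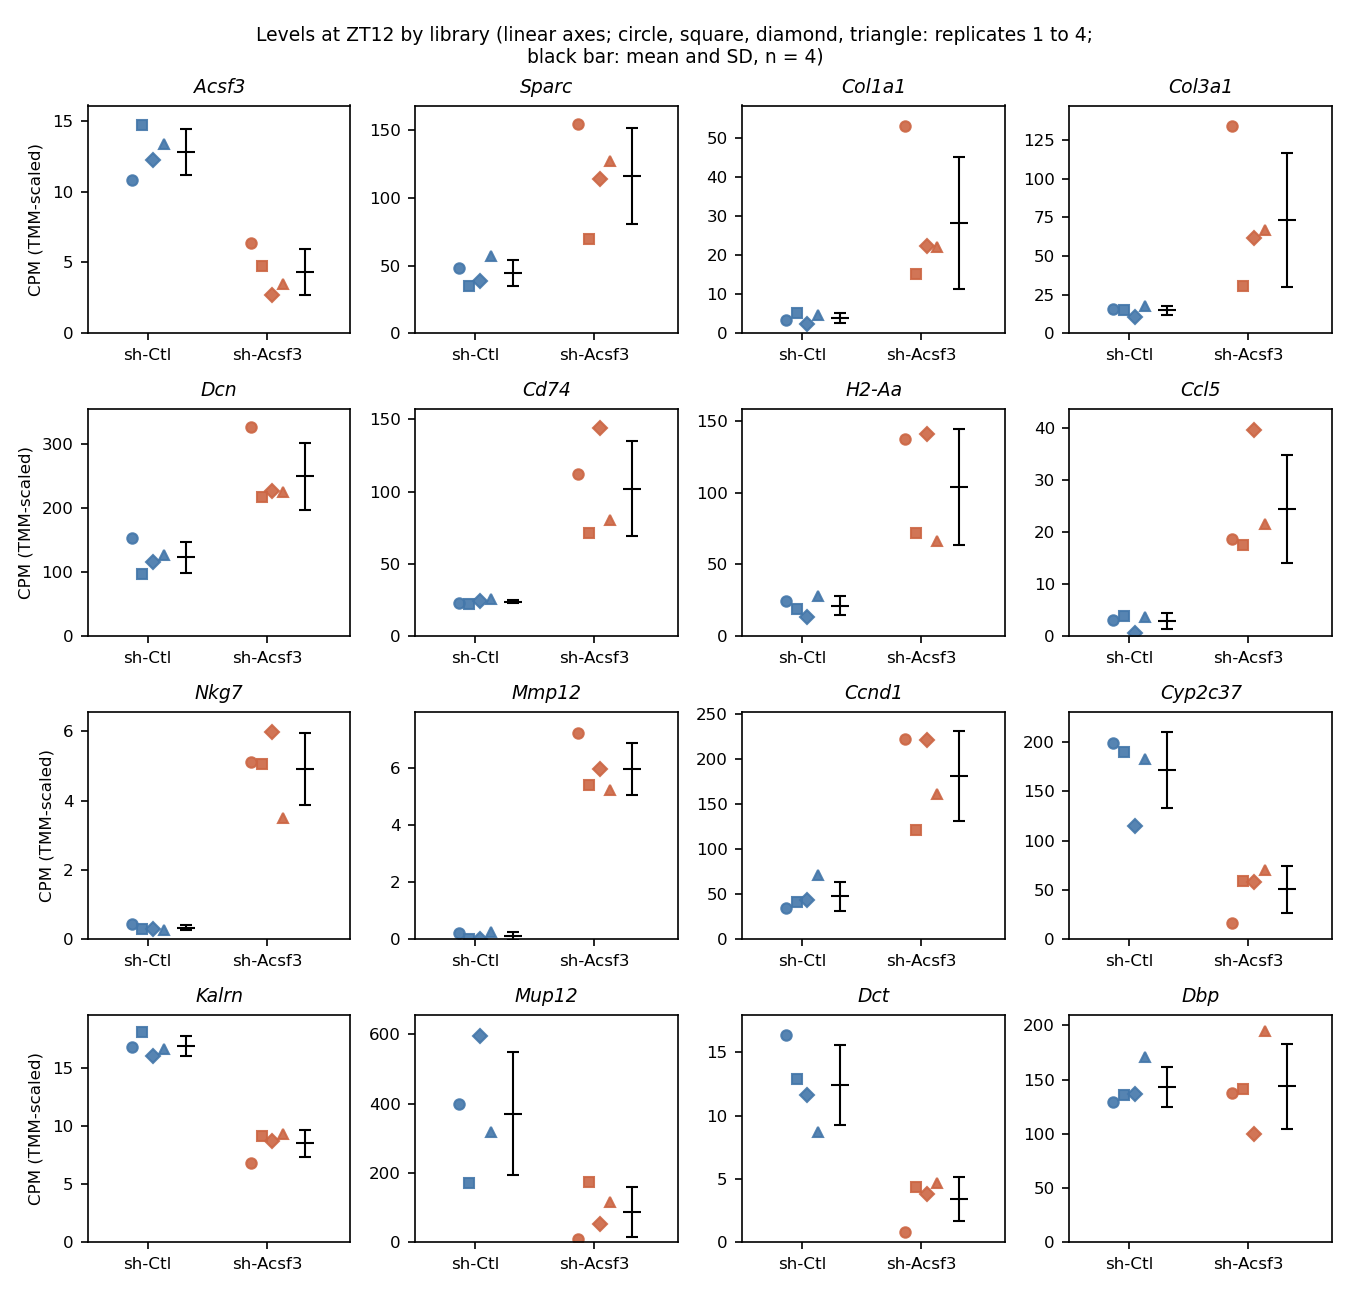
Each panel gives 1 gene in the 8 ZT12 libraries on a linear CPM axis from 0, with a marker shape for each replicate number and the mean and SD (n = 4) as a black bar. The groups do not overlap for Acsf3, the 4 matrix and stellate genes (Sparc, Col1a1, Col3a1 and Dcn), Cd74, H2-Aa, Ccl5, Nkg7, Mmp12, Ccnd1, Cyp2c37, Kalrn and Dct, while those of Mup12 and of the clock gene Dbp do.

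Genes of MHC class II, which present antigen to helper T cells, rose together. Of 10 listed genes 6 were tested, 4 rose and none fell, and the median was 2.07. The class II chains lie close together on chromosome 17, and their promoters share short boxes through which the coactivator CIITA acts. To show a box that 2 of the measured genes share, the 120 bases before the start of the gene are given for H2-Aa (chr17:34287824-34287943, minus strand) and H2-Eb1 (chr17:34305747-34305866, plus strand). They are from RefSeq on GRCm38.p6, 5′ to 3′ on the strand of the gene. The capitals mark the letters CTGATTGG, the Y box of class II promoters.
H2-Aa: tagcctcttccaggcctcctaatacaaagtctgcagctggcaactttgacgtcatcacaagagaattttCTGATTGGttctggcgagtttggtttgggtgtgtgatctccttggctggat
H2-Eb1: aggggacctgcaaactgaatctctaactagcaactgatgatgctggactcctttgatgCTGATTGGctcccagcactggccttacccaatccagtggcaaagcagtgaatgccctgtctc
The box starts 51 bases before the gene in H2-Aa and 62 bases before it in H2-Eb1. Searched on both strands, the 8 letters are found in that window in 934 of 32851 promoters of the RefSeq table (2.84%). Neither of the 2 entries of H2-DMa holds them. Of the listed genes that were not tested, H2-Oa holds them and H2-DMb1, H2-DMb2 and H2-Ob do not. The motif and the window were chosen after the promoters of class II genes had been looked at, so the match is a description. H2-Ab1, Cd74 and Ciita have no entry in the table.

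H2-Aa (chr17:34282744-34287823, minus strand) was at 24.3, 19.0, 13.2 and 28.4 CPM in sh-Ctl and 137, 72.0, 141 and 66.4 CPM in sh-Acsf3. Each sh-Acsf3 library was above each sh-Ctl library, with replicates 1 and 3 about level and the highest (2.28 ± 0.49, edgeR adjusted p 0.00558). H2-Ab1, which encodes the partner chain, was at 10.4, 11.6, 11.3 and 16.4 CPM in sh-Ctl and 64.0, 31.8, 76.6 and 36.7 CPM in sh-Acsf3, again highest in replicates 1 and 3 (2.06 ± 0.43, edgeR adjusted p 0.00436). H2-Eb1 was at 18.8, 15.9, 6.27 and 22.1 CPM in sh-Ctl and 98.1, 54.5, 102 and 60.6 CPM in sh-Acsf3 (2.30 ± 0.51, edgeR adjusted p 0.00769). The call of H2-Eb1 ended without sh-Acsf3 replicate 1 (log2 2.17, adjusted p 0.0515). Cd74, the invariant chain that fills the class II groove until antigen is loaded, was at 23.4, 22.7, 24.8 and 25.6 CPM in sh-Ctl and 112, 71.7, 144 and 80.4 CPM in sh-Acsf3, with controls within a narrow range (2.08 ± 0.47, edgeR adjusted p 0.00865). The tested members that did not pass were H2-DMa, which loads peptides, at 0.442, 1.53, 0.627 and 3.00 CPM in sh-Ctl and 4.27, 2.37, 8.70 and 2.91 CPM in sh-Acsf3 (1.65 ± 0.50, edgeR adjusted p 0.0790), and Ciita at 0.662, 0.919, 0.627 and 3.27 CPM in sh-Ctl and 5.97, 1.69, 4.35 and 1.75 CPM in sh-Acsf3 (1.29 ± 0.62, edgeR adjusted p 0.351). Among genes of MHC class I and the immunoproteasome, 0 of 17 tested passed the edgeR test. Tap1, which carries peptides to class I, was at 7.29, 14.7, 13.8 and 10.6 CPM in sh-Ctl and 20.9, 18.6, 22.3 and 18.1 CPM in sh-Acsf3 (0.80 ± 0.30, edgeR adjusted p 0.187). Outside that list, H2-Q1 was at 2.21, 2.45, 1.88 and 2.18 CPM in sh-Ctl and 24.7, 4.06, 9.24 and 7.58 CPM in sh-Acsf3 (2.36 ± 0.39). The call of H2-Q1 ended without sh-Acsf3 replicate 1 (log2 1.59, adjusted p 0.0515). H2-M2, another class I gene, was at 0.221, 0, 0 and 0 CPM in sh-Ctl and 1.71, 2.37, 3.26 and 1.17 CPM in sh-Acsf3 (edgeR adjusted p 0.00658), on 1 UMI against 19, a ratio of 31.4 with an exact 95% interval from 4.99 to 1300 for counting error. Class I genes are alike in sequence and can share reads, so these values are uncertain.

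Transcripts of cytotoxic lymphocytes were higher in sh-Acsf3. Ccl5 (chr11:83525778-83530518, minus strand), a chemokine that T and NK cells release, had the smallest p of all genes at ZT12, at 3.09, 3.98, 0.627 and 3.82 CPM in sh-Ctl and 18.8, 17.6, 39.7 and 21.6 CPM in sh-Acsf3. Replicate 3 was the highest and the other sh-Acsf3 libraries lay close together, all above the controls (3.02 ± 0.38, edgeR adjusted p 1.75e-06), from 43 control UMIs and 206 after knockdown. Ccl4, a related chemokine, was at 0.221, 0.613, 0 and 0.545 CPM in sh-Ctl and 6.40, 4.06, 10.3 and 1.75 CPM in sh-Acsf3 (3.88 ± 0.78, edgeR adjusted p 0.00192). Nkg7, a protein of cytotoxic granules, was at 0.442, 0.306, 0.314 and 0.273 CPM in sh-Ctl and 5.12, 5.07, 5.98 and 3.50 CPM in sh-Acsf3 (3.71 ± 0.59, edgeR adjusted p 2.69e-05), and Trbc2, the constant part of the T cell receptor beta chain, at 0.442, 0, 0.627 and 1.64 CPM in sh-Ctl and 4.27, 4.06, 8.15 and 6.99 CPM in sh-Acsf3 (2.98 ± 0.57, edgeR adjusted p 9.07e-04). Each of these 3 genes also separated the groups, and their calls passed in each fit that left out 1 library. Of 27 T and NK cell markers listed, only 6 reached the level needed for testing. All 6 had differences above 0, 2 passed, and the median was 2.17, while 4 of 7 passed without sh-Acsf3 replicate 2. Cd3g, a chain of the T cell receptor complex, missed the threshold at 0, 0.306, 1.57 and 0.273 CPM in sh-Ctl and 2.56, 2.03, 3.80 and 2.91 CPM in sh-Acsf3 (2.41 ± 0.68, edgeR adjusted p 0.0506). The summed level of the 27 markers was 8.39, 9.80, 8.78 and 12.0 CPM in sh-Ctl and 34.1, 27.4, 52.2 and 40.2 CPM in sh-Acsf3, so the groups did not overlap.

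B cell and plasma cell markers gave 1 rise among 7 tested, and that gene was Ly6d, which is not restricted to B cells. It was at 1.77, 4.29, 0.941 and 1.09 CPM in sh-Ctl and 33.3, 5.41, 3.80 and 2.91 CPM in sh-Acsf3, a rise carried by sh-Acsf3 replicate 1. The call of Ly6d ended without any 1 of sh-Ctl replicates 1, 3 and 4 and sh-Acsf3 replicate 1 (log2 1.06 to 2.46, adjusted p 0.0546 to 0.622). The immunoglobulin light chain Igkc was at 5.52, 4.29, 7.84 and 5.72 CPM in sh-Ctl and 17.5, 12.8, 21.2 and 40.8 CPM in sh-Acsf3 (1.93 ± 0.65, edgeR adjusted p 0.129), with groups that did not overlap but a highest value in replicate 4. In the chemokine list, 3 of 13 tested genes rose: Ccl5, Ccl4 and Cxcl16, a membrane-bound chemokine, which was at 5.52, 4.90, 1.25 and 6.00 CPM in sh-Ctl and 13.2, 7.78, 12.5 and 7.58 CPM in sh-Acsf3 (1.17 ± 0.29). The call of Cxcl16 ended without any 1 of sh-Ctl replicate 3 and sh-Acsf3 replicates 1 and 3 (log2 0.89 to 1.06, adjusted p 0.0986 to 0.229). Cxcl9, which interferon-gamma induces, was at 17.2, 13.8, 15.1 and 30.5 CPM in sh-Ctl and 31.1, 30.1, 69.6 and 43.1 CPM in sh-Acsf3 (1.16 ± 0.45, edgeR adjusted p 0.210). Of 29 interferon-stimulated genes tested, 0 passed edgeR's test, although 26 had differences above 0.

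Genes of macrophages gave few calls. Mmp12, macrophage elastase, counted in the matrix list because it cuts elastin, was at 0.221, 0, 0 and 0.273 CPM in sh-Ctl and 7.25, 5.41, 5.98 and 5.24 CPM in sh-Acsf3 (edgeR adjusted p 2.69e-05). Its 2 UMIs in sh-Ctl against 53 in sh-Acsf3 give a ratio of 43.8, with an exact 95% interval from 11.5 to 371 that covers counting error only. All 4 sh-Acsf3 libraries lay within a narrow range of each other. By contrast, 0 of 17 Kupffer cell and macrophage markers passed, with a median of 0.41. C1qa, a complement chain that Kupffer cells make, was at 20.3, 27.3, 23.2 and 22.1 CPM in sh-Ctl and 35.8, 35.2, 45.6 and 36.1 CPM in sh-Acsf3 (0.72 ± 0.26, edgeR adjusted p 0.163), and Cd68 at 6.84, 5.51, 4.08 and 3.27 CPM in sh-Ctl and 9.81, 7.78, 17.9 and 9.32 CPM in sh-Acsf3 (1.13 ± 0.35, edgeR adjusted p 0.0856). The summed level of that list was 388, 474, 405 and 373 CPM in sh-Ctl and 619, 475, 591 and 452 CPM in sh-Acsf3, so the groups overlapped. Without sh-Acsf3 replicate 2, 1 of those 17 passed. Markers of monocytes, neutrophils and dendritic cells gave 0 calls of 8, with a median of 0.82 and 5 genes at an unadjusted p under 0.05. Their summed level was 27.8, 60.6, 32.0 and 27.8 CPM in sh-Ctl and 83.6, 51.7, 65.2 and 55.4 CPM in sh-Acsf3, with overlap through sh-Ctl replicate 2. Markers of bile duct cells gave 0 of 5, with a median of 0.73 and 4 genes at an unadjusted p under 0.05, and a summed level of 52.3, 89.1, 38.9 and 51.2 CPM in sh-Ctl and 110.5, 82.2, 89.1 and 93.2 CPM in sh-Acsf3. Those of sinusoidal endothelium gave 0 of 19, with a median of 0.17 and 4 such genes, and 1 call without sh-Acsf3 replicate 2. The part of these cell types in the rises was not tested. Vcam1, an adhesion molecule that recruits lymphocytes, rose outside these lists, at 5.08, 4.59, 2.51 and 5.18 CPM in sh-Ctl and 14.1, 13.9, 18.5 and 16.3 CPM in sh-Acsf3 (1.81 ± 0.29, edgeR adjusted p 2.69e-05). Clec7a, a receptor of myeloid cells, was at 2.21, 7.04, 2.82 and 3.27 CPM in sh-Ctl and 16.6, 9.81, 9.78 and 8.16 CPM in sh-Acsf3 (1.57 ± 0.38). The call of Clec7a ended without any 1 of sh-Ctl replicates 1, 3 and 4 and sh-Acsf3 replicate 1 (log2 1.30 to 1.51, adjusted p 0.0531 to 0.230). Lgals3, which activated macrophages express, was at 5.96, 8.27, 5.96 and 6.81 CPM in sh-Ctl and 29.4, 17.2, 24.5 and 15.2 CPM in sh-Acsf3 (1.68 ± 0.43). The call of Lgals3 ended without any 1 of sh-Ctl replicates 1, 3 and 4 and sh-Acsf3 replicates 1 and 3 (log2 1.48 to 1.68, adjusted p 0.0662 to 0.229).

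Cyclin D1 (Ccnd1, chr7:144929931-144939925, minus strand), which moves cells from G1 towards DNA replication, was the growth gene with the clearest rise. It was at 34.4, 41.4, 43.6 and 71.1 CPM in sh-Ctl and 222, 121, 221 and 161 CPM in sh-Acsf3, with no overlap (1.93 ± 0.29, edgeR adjusted p 2.69e-05), and passed without any 1 library. It was the 1 call among 11 tested genes of cyclin D and G1, of which 3 rose without sh-Acsf3 replicate 2. Cdkn2c, an inhibitor of the kinases that cyclin D activates, was at 7.51, 7.66, 5.02 and 6.81 CPM in sh-Ctl and 10.7, 11.2, 14.7 and 14.0 CPM in sh-Acsf3, with no overlap but an adjusted p of 0.0614 in edgeR (0.87 ± 0.25). In DNA replication and mitosis, all 22 tested genes had differences above 0, with a median of 1.11, and 1 passed. That gene, Mcm2, a part of the replicative helicase, was at 1.10, 1.53, 0.941 and 0.545 CPM in sh-Ctl and 7.25, 3.04, 5.43 and 4.08 CPM in sh-Acsf3 (2.21 ± 0.58). The call of Mcm2 ended without any 1 of sh-Ctl replicates 1, 3 and 4 and sh-Acsf3 replicates 1 and 3 (log2 1.94 to 2.26, adjusted p 0.0766 to 0.247). The summed level of the 30 listed genes was 153, 149, 141 and 181 CPM in sh-Ctl and 339.6, 162, 250.0 and 194 CPM in sh-Acsf3, with replicates 1 and 3 of sh-Acsf3 the highest. Without sh-Acsf3 replicate 1 the median of the list was 0.45 and no gene passed, and without sh-Acsf3 replicate 2, 3 did.

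Further rises concerned lipid handling, and most of them were carried by sh-Acsf3 replicate 1. Apoa4, an apolipoprotein that rises with fat load in the liver, was at 75.3, 103, 89.7 and 74.4 CPM in sh-Ctl and 379, 145, 223 and 110.1 CPM in sh-Acsf3 (1.33 ± 0.29, edgeR adjusted p 0.00638), and its groups did not overlap. The call of Apoa4 ended without sh-Acsf3 replicate 1 (log2 0.90, adjusted p 0.230). The fatty acid transporter Cd36 was at 8.39, 8.88, 10.3 and 12.0 CPM in sh-Ctl and 38.4, 14.2, 17.4 and 18.1 CPM in sh-Acsf3 (1.16 ± 0.27). The call of Cd36 ended without sh-Acsf3 replicate 1 (log2 0.72, adjusted p 0.342). Lipoprotein lipase (Lpl) was at 17.0, 12.6, 20.4 and 23.7 CPM in sh-Ctl and 95.1, 22.7, 31.5 and 20.4 CPM in sh-Acsf3, with overlap between the groups (1.21 ± 0.30). The call of Lpl ended without any 1 of sh-Ctl replicates 1 and 2 and sh-Acsf3 replicate 1 (log2 0.42 to 1.17, adjusted p 0.0646 to 0.627). Acot2, a mitochondrial acyl-CoA thioesterase, was at 2.21, 2.45, 2.51 and 1.09 CPM in sh-Ctl and 14.5, 3.04, 2.72 and 4.08 CPM in sh-Acsf3 (1.57 ± 0.41). The call of Acot2 ended without any 1 of sh-Ctl replicates 1 and 4 and sh-Acsf3 replicate 1 (log2 0.65 to 1.61, adjusted p 0.0646 to 0.689). Oxct1, which lets tissues burn ketone bodies and is weak in hepatocytes, was even across the sh-Acsf3 libraries, at 3.09, 2.45, 3.14 and 3.27 CPM in sh-Ctl and 6.40, 6.76, 7.07 and 6.41 CPM in sh-Acsf3 (1.14 ± 0.30). The call of Oxct1 ended without any 1 of sh-Ctl replicates 1, 2 and 3 and sh-Acsf3 replicates 1 and 3 (log2 1.06 to 1.16, adjusted p 0.0564 to 0.100). Gstm3, a glutathione transferase, was at 23.6, 5.51, 21.3 and 27.5 CPM in sh-Ctl and 213, 28.1, 100 and 92.6 CPM in sh-Acsf3 (2.46 ± 0.59). The call of Gstm3 ended without any 1 of sh-Ctl replicate 2 and sh-Acsf3 replicate 1 (log2 1.88 to 2.15, adjusted p 0.0803 to 0.243). Fgf21, a hormone of fasting and mitochondrial stress, was at 0.442, 0, 0.314 and 0.273 CPM in sh-Ctl and 8.53, 1.35, 0.543 and 0.583 CPM in sh-Acsf3, a difference of 3.23 ± 0.92 with an edgeR adjusted p of 0.0547 that rests on 1 library. Of the lists behind these genes, PPARalpha targets held 2 calls of 26, lipid droplet and fatty acid uptake 2 of 18, ketogenesis 1 of 7, apolipoproteins 1 of 19 and NRF2 targets with glutathione transferases 1 of 21. Without sh-Acsf3 replicate 1, none of these 5 lists held a call.

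Falls were fewer and most were small. Cyp2c37 (chr19:39992424-40012243, plus strand), a cytochrome P450 that oxidises arachidonic acid, was at 199, 189.6, 114 and 183 CPM in sh-Ctl and 16.2, 59.2, 57.6 and 69.9 CPM in sh-Acsf3. The groups did not overlap, and replicate 1 was the lowest (-1.77 ± 0.34, edgeR adjusted p 0.00175). Without that library the difference was -1.47 and still passed. It was the 1 fall among 31 tested genes of cytochrome P450 and conjugation enzymes. Related Cyp2c genes can share reads with it. Cyp2j5, another P450 that acts on arachidonic acid and outside that list, was at 292, 393, 298 and 350.0 CPM in sh-Ctl and 166, 283, 206 and 233 CPM in sh-Acsf3 (-0.58 ± 0.12). The call of Cyp2j5 ended without sh-Acsf3 replicate 1 (log2 -0.47, adjusted p 0.0612). Dct (chr14:118012790-118052244, minus strand), dopachrome tautomerase, known as an enzyme of pigment cells, was at 16.3, 12.9, 11.6 and 8.72 CPM in sh-Ctl and 0.853, 4.40, 3.80 and 4.66 CPM in sh-Acsf3, with no overlap (-1.87 ± 0.36, edgeR adjusted p 0.00102). Kalrn, a guanine nucleotide exchange factor, was at 16.8, 18.1, 16.0 and 16.6 CPM in sh-Ctl and 6.83, 9.13, 8.70 and 9.32 CPM in sh-Acsf3, and its controls agreed within a narrow range (-0.99 ± 0.19, edgeR adjusted p 0.00120). St6gal1, the transferase that adds sialic acid to secreted glycoproteins, was at 54.8, 80.0, 47.4 and 74.7 CPM in sh-Ctl and 36.3, 31.4, 29.4 and 44.3 CPM in sh-Acsf3 (-0.87 ± 0.19, edgeR adjusted p 0.00557). With Acsf3, these 4 (Cyp2c37, Dct, Kalrn and St6gal1) were the falls that passed in each fit that left out 1 library.

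The other falls named here came from different lists or from none. Hacl1, a peroxisomal lyase of fatty acid alpha-oxidation, was at 99.4, 95.3, 147 and 74.4 CPM in sh-Ctl and 55.5, 71.0, 69.0 and 46.6 CPM in sh-Acsf3 (-0.77 ± 0.16, edgeR adjusted p 0.00316). The call of Hacl1 ended without sh-Ctl replicate 3 (log2 -0.57, adjusted p 0.0820). Pdia6, a protein disulfide isomerase, was at 251, 272, 305 and 278 CPM in sh-Ctl and 146, 208, 149.5 and 175 CPM in sh-Acsf3, with no overlap (-0.70 ± 0.17). The call of Pdia6 ended without any 1 of sh-Ctl replicate 3 and sh-Acsf3 replicates 1 and 3 (log2 -0.67 to -0.64, adjusted p 0.0639 to 0.138). Hnf4a, the transcription factor that maintains hepatocyte identity, was at 378, 272, 362 and 436 CPM in sh-Ctl and 228, 275, 281 and 224 CPM in sh-Acsf3, with sh-Ctl replicate 2 inside the sh-Acsf3 range (-0.52 ± 0.14). The call of Hnf4a ended without any 1 of sh-Ctl replicates 1, 3 and 4 and sh-Acsf3 replicates 1 and 4 (log2 -0.53 to -0.42, adjusted p 0.0925 to 0.242). Klkb1, plasma prekallikrein, was at 413, 450.3, 354 and 416 CPM in sh-Ctl and 275, 374, 259 and 286 CPM in sh-Acsf3 (-0.45 ± 0.13). The call of Klkb1 ended without any 1 of sh-Ctl replicates 1, 2 and 4 and sh-Acsf3 replicates 1, 3 and 4 (log2 -0.45 to -0.41, adjusted p 0.0922 to 0.242). Coq10a, which binds coenzyme Q in mitochondria, was at 24.1, 28.8, 27.3 and 23.4 CPM in sh-Ctl and 13.2, 15.9, 16.3 and 19.2 CPM in sh-Acsf3, with no overlap (-0.69 ± 0.19). The call of Coq10a ended without any 1 of sh-Ctl replicates 1, 2 and 3 and sh-Acsf3 replicates 1, 2 and 3 (log2 -0.73 to -0.60, adjusted p 0.0552 to 0.261). Sephs2, which makes the selenium donor for selenoproteins, was at 1081, 1147, 1056 and 1193 CPM in sh-Ctl and 641, 817, 644 and 931 CPM in sh-Acsf3 (-0.56 ± 0.14). The call of Sephs2 ended without any 1 of sh-Ctl replicate 4 and sh-Acsf3 replicates 1 and 3 (log2 -0.53 to -0.49, adjusted p 0.0679 to 0.196).

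Major urinary proteins, pheromone carriers that male mouse liver secretes under growth hormone, were low but variable. All 14 tested of 22 listed had differences below 0, with a median of -1.93, and 1 passed. Mup12 was at 399, 170.3, 596 and 319 CPM in sh-Ctl and 9.39, 174, 53.8 and 117 CPM in sh-Acsf3, with overlap between sh-Ctl replicate 2 and sh-Acsf3 replicate 2 (-2.06 ± 0.52, edgeR adjusted p 0.0244). The call of Mup12 ended without any 1 of sh-Ctl replicates 1 and 3 and sh-Acsf3 replicates 1 and 3 (log2 -2.02 to -1.68, adjusted p 0.0546 to 0.191). Mup3, the most abundant of those near the threshold, was at 15390, 10720, 14220 and 13640 CPM in sh-Ctl and 2754, 11560, 6631 and 9823 CPM in sh-Acsf3 (-0.81 ± 0.23, edgeR adjusted p 0.0605). The family's summed level was 47870, 28370, 60460 and 43220 CPM in sh-Ctl and 10180, 33340, 19400 and 24230 CPM in sh-Acsf3, so the groups overlapped through sh-Ctl replicate 2 and sh-Acsf3 replicate 2. Without sh-Acsf3 replicate 2, 5 of 14 fell with a median of -2.52, and without sh-Acsf3 replicate 1 none did, with a median of -1.53. These genes are near copies, and reads may be split among them, so single members are uncertain. Of 27 genes of the male-biased and growth hormone axis, 22 lay below 0, with a median of -0.29, and none fell. Without sh-Acsf3 replicate 2 the median was -0.51 and 4 fell. The 1 rise of that list was Igfbp3, a carrier of insulin-like growth factors that non-parenchymal liver cells make, at 15.5, 10.1, 8.47 and 14.2 CPM in sh-Ctl and 45.6, 18.3, 34.2 and 29.7 CPM in sh-Acsf3 (1.38 ± 0.28). Its call ended without sh-Acsf3 replicate 1 (log2 1.13, adjusted p 0.0743).

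Acute-phase proteins differed mainly through 1 control library. Of 31 genes tested, 28 had differences below 0, with a median of -0.73, and 1 fell: Lbp, which binds bacterial lipopolysaccharide, at 57.0, 135, 49.2 and 64.6 CPM in sh-Ctl and 31.1, 46.7, 50.0 and 28.6 CPM in sh-Acsf3 (-0.96 ± 0.25, edgeR adjusted p 0.0257). The call of Lbp ended without any 1 of sh-Ctl replicate 2 and sh-Acsf3 replicates 1 and 4 (log2 -0.86 to -0.54, adjusted p 0.0957 to 0.284). Saa1 itself differed by -4.18 ± 1.45 with an edgeR adjusted p of 0.145. Orm2, an acid glycoprotein, was at 9.49, 2334, 6.59 and 10.6 CPM in sh-Ctl and 7.25, 23.3, 19.6 and 8.74 CPM in sh-Acsf3, and Itih4, an inhibitor chain, at 829.7, 4141, 805 and 937 CPM in sh-Ctl and 622, 806, 735 and 634 CPM in sh-Acsf3, and in both sh-Ctl replicate 2 alone was high. Without that library the median of the 31 genes was -0.04 and no member passed, while the number of genes called at ZT12 was 136 (112 higher, 24 lower), of which 99 were among the 141. The matrix and class II counts were 17 and 4 without it. Hepcidin (Hamp), the iron hormone, went the other way, at 1563, 1125, 1201 and 1162 CPM in sh-Ctl and 2442, 1765, 2465 and 2677 CPM in sh-Acsf3, with no overlap (0.89 ± 0.27, edgeR adjusted p 0.0866). In coagulation and complement, 28 of 30 genes lay below 0 with a median of -0.24, and Klkb1 alone passed. In that list 5 genes fell without sh-Acsf3 replicate 2, and none passed without sh-Acsf3 replicate 1 or without sh-Ctl replicate 2. Its summed level was 12280, 16730, 11180 and 13490 CPM in sh-Ctl and 9027, 11320, 11720 and 11860 CPM in sh-Acsf3, highest in the sh-Ctl library high in Saa1.

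The circadian clock did not pass the test in any member at lights off. Activators gave 0 calls of 5, repressors 0 of 10 and output factors and targets 0 of 11 by edgeR, and DESeq2 and limma-voom called none of the 26; 2 had an unadjusted p under 0.05. Dbp, a transcription factor that the clock drives directly and that peaks late in the light phase, was at 129.6, 136, 136 and 171 CPM in sh-Ctl and 138, 142, 100 and 195 CPM in sh-Acsf3, a difference of 0.00 ± 0.32 with a 95% interval from -0.64 to 0.65. Of the repressors, Per1 was at 14.3, 15.9, 9.41 and 13.1 CPM in sh-Ctl and 17.1, 12.2, 15.2 and 23.9 CPM in sh-Acsf3 (0.34 ± 0.33), Per2 at 23.6, 11.9, 20.7 and 11.2 CPM in sh-Ctl and 31.6, 16.9, 15.8 and 18.6 CPM in sh-Acsf3 (0.29 ± 0.41), and Nr1d2 at 42.0, 32.8, 34.5 and 45.5 CPM in sh-Ctl and 41.8, 43.3, 26.1 and 33.8 CPM in sh-Acsf3 (-0.08 ± 0.22). The differences of the others were 0.31 for Per3, 0.21 for Cry1, 0.17 for Cry2, 0.16 for Nr1d1, 0.43 for Ciart, -0.22 for Bhlhe40 and -0.41 for Nfil3. Among activators, Clock was at 12.4, 11.0, 13.5 and 11.4 CPM in sh-Ctl and 16.2, 16.2, 13.0 and 7.58 CPM in sh-Acsf3 (0.17 ± 0.25). Arntl, which is low at this time of day, was at 1.77, 0.306, 0.314 and 0.545 CPM in sh-Ctl and 1.71, 1.35, 2.17 and 1.17 CPM in sh-Acsf3 (0.93 ± 0.69). Rora differed by 0.32, and Npas2 was held by 2 UMIs in all. Of the outputs, Hlf (-0.42 ± 0.16) and Rgs16 (-1.20 ± 0.66) were farthest from 0 by p, with edgeR adjusted p of 0.216 and 0.442, and Tef differed by -0.17, Usp2 by -0.05, Wee1 by -0.22, Nampt by -0.10, Por by 0.24, Upp2 by -0.16, Tsc22d3 by -0.26 and Tspan4 by 0.34.

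The 5 lists of mitochondrial metabolism, where the ACSF3 enzyme acts, held no call at ZT12. Mitochondrial genes called outside these lists included Acsf3 itself, Acot2, Oxct1 and Coq10a, described above, among others. The list of malonyl-CoA, mitochondrial fatty acid synthesis and lipoic acid genes gave 0 of 21. Lias, which makes lipoic acid, was at 36.6, 27.3, 44.2 and 32.2 CPM in sh-Ctl and 21.8, 30.1, 23.9 and 27.4 CPM in sh-Acsf3 (-0.44 ± 0.17, edgeR adjusted p 0.202), and Mlycd, which breaks down malonyl-CoA, at 67.1, 85.8, 86.9 and 85.6 CPM in sh-Ctl and 70.0, 66.6, 74.5 and 74.0 CPM in sh-Acsf3 (-0.19 ± 0.14, edgeR adjusted p 0.592). Mitochondrial fatty acid oxidation gave 0 of 19, the TCA cycle and pyruvate dehydrogenase 0 of 21, and branched-chain amino acid and propionate breakdown 0 of 23. Of the TCA genes, Idh2, mitochondrial isocitrate dehydrogenase, came nearest, at 61.4, 61.3, 51.8 and 59.1 CPM in sh-Ctl and 82.8, 59.9, 81.5 and 92.1 CPM in sh-Acsf3 (0.43 ± 0.13, edgeR adjusted p 0.0828). Idh2 passed without sh-Acsf3 replicate 2 (log2 0.55, adjusted p 0.0149). In the respiratory chain and ATP synthase 0 of 70 passed, 55 lay below 0, and the median was -0.14. The groups did not overlap in 7 of the 70 with sh-Acsf3 lower and in 0 with it higher. Over all tested genes these shares were 2.96% and 3.86%. With scaling by library size only, which moved the median of all genes from -0.0013 to 0.0949, that list's median was -0.05.

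In cholesterol synthesis and uptake 21 of 24 genes lay above 0, with a median of 0.40, but none passed the edgeR test. The groups did not overlap in 5 of the 24 with sh-Acsf3 higher and in 0 with it lower. Over all tested genes these shares were 3.86% and 2.96%. Without sh-Acsf3 replicate 2, 2 of 25 rose, and without sh-Ctl replicate 2, 1 did. In fatty acid and triglyceride synthesis 0 of 23 passed, and the elongase Elovl5 was nearest, at 74.2, 95.0, 90.3 and 115 CPM in sh-Ctl and 231, 136, 208 and 179 CPM in sh-Acsf3 (1.01 ± 0.28, edgeR adjusted p 0.0585). Without sh-Acsf3 replicate 2, 3 genes of this list rose, Elovl5 among them (log2 1.14, adjusted p 0.0249). In bile acid synthesis and transport 16 of 18 lay below 0, and none passed, while 2 fell without sh-Acsf3 replicate 2. Slc10a1, the carrier that takes up bile acids, was at 961, 856, 908 and 909.5 CPM in sh-Ctl and 401, 671, 634 and 1009 CPM in sh-Acsf3 (-0.42 ± 0.17, edgeR adjusted p 0.225). Gluconeogenesis and fasting gave 0 of 19, glycolysis and fructose use 0 of 15, glycogen 0 of 16 and the urea cycle 0 of 13. G6pc, which releases glucose from the liver, was at 444, 217, 308 and 270.1 CPM in sh-Ctl and 89.2, 323, 140.2 and 264 CPM in sh-Acsf3 (-0.60 ± 0.47). Of the stress lists, the integrated stress response gave 0 of 13, heat shock 0 of 18, p53 targets 0 of 11 and ER chaperones 1 fall of 24, Pdia6. Without sh-Acsf3 replicate 2, p53 targets gave 2 rises and the integrated stress response 1. In the 36 of 59 lists without a call, 108 of 633 genes had an unadjusted p under 0.05 (17.1%, against 13.2% of all tested genes). DESeq2 called 3 of the 633 and limma-voom 0. Of the 108, 20 were among the 21 tested exocrine pancreas markers, which sh-Acsf3 replicate 2 alone held at a high level.

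**Figure D4:**
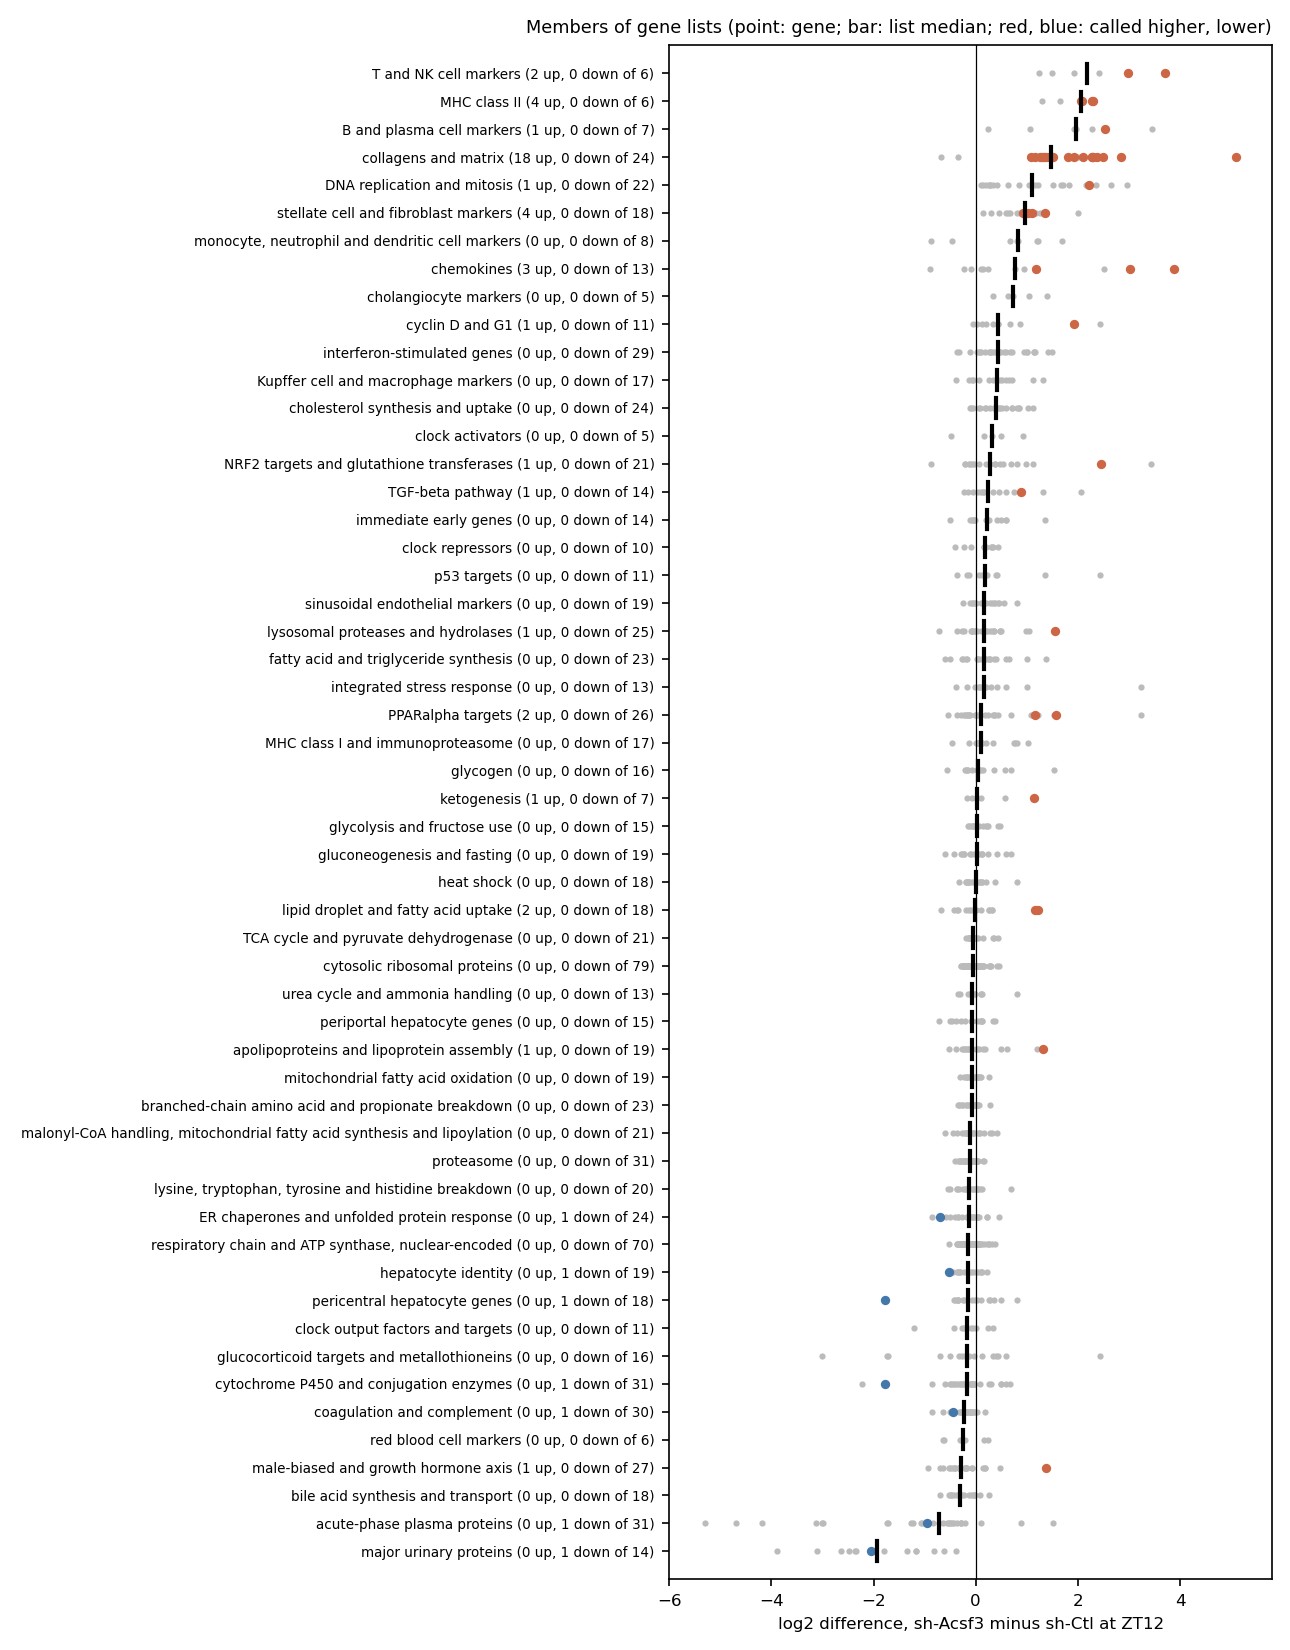
Rows are the 54 gene lists with at least 5 tested members (exocrine pancreas left out), ordered by median. Points are genes at their log2 difference at ZT12, red and blue points are called higher and lower, and the bar is the list's median. Red points gather in collagens and matrix, MHC class II, chemokines, T and NK cells and stellate cells, while clock, mitochondrial and most metabolic lists lie around 0 with no coloured point.

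Pancreas genes had the largest median difference of the 59 lists, 5.59 over 21 tested genes, with 0 calls by edgeR. The pancreatic elastase Cela3b was at 1.32, 0, 0 and 0.545 CPM in sh-Ctl and 0.427, 218, 2.72 and 0.583 CPM in sh-Acsf3, so that 1 library makes the difference, and without sh-Acsf3 replicate 2 the list's median was -0.49. This library was not the highest in the matrix, class II or lymphocyte genes named above, and without it 20 matrix genes and 5 class II genes rose. Spink1, a trypsin inhibitor of the pancreas, was called at ZT12, at 0.662, 0.919, 0.627 and 0.273 CPM in sh-Ctl and 7.68, 13.9, 4.35 and 0 CPM in sh-Acsf3 (3.43 ± 0.95, edgeR adjusted p 0.0487). Its highest value belongs to the library with pancreas RNA. The next highest, 7.68 CPM, belongs to sh-Acsf3 replicate 1, whose summed pancreas markers (5.97 CPM) were the lowest of the 8 libraries. The source of the Spink1 RNA was not tested. The call of Spink1 ended without any 1 of sh-Ctl replicates 1, 2, 3 and 4 and sh-Acsf3 replicates 1, 2 and 3 (log2 2.71 to 3.63, adjusted p 0.0614 to 0.188).

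Whether lights off differs from the rest of the day was asked by setting the ZT12 difference against the mean difference over the other 7 times. Over those times 1032 genes differed (10.2% of those tested; 641 higher, 6.35%, and 391 lower, 3.87%), from 56 libraries against 8 at ZT12. With scaling by library size only there were 797 higher and 147 lower. Of the 141 ZT12 genes, 120 passed in the same direction over the other times, which is 85.1% of the 141 and 11.6% of the 1032, and all 141 had the same sign. The same sign held at every 1 of the 7 other times in 108 of them. No gene passed the test of the difference between ZT12 and the other times in edgeR (429 at an unadjusted p under 0.05, 4.25% of those tested), nor with DESeq2 or limma-voom. Without the filter on low counts, 81 genes passed it. These were led by Saa2, Saa1, Orm2 and Saa3, and 13 of them are in the acute-phase list and 16 in the pancreas list. The lists do not hold all 81. At ZT12 1 library each stood out in these lists, and at other times further libraries did. Saa1 was at 3604 CPM in sh-Ctl_ZT9 replicate 1, and the summed pancreas markers at 10770 CPM in sh-Acsf3_ZT21 replicate 2.

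Counts of calls at single times were 52 at ZT0, 7 at ZT3, 22 at ZT6, 36 at ZT9, 141 at ZT12, 3 at ZT15, 17 at ZT18 and 32 at ZT21. Each rests on 4 libraries a side, and whether these counts differ was not tested. Of the 141 genes, 50 passed at 1 or more of the other single times and 91 at none. The differences at ZT12 and over the other times stand side by side as follows. For Col3a1 they were 2.29 and 1.44, for Ccl5 3.02 and 3.43, for Cd74 2.08 and 1.58, for Ccnd1 1.93 and 1.50, for Col1a1 2.84 and 1.92, and for Cyp2c37 -1.77 and -1.07. The median of the 117 rises was 1.45 at ZT12 and 0.71 over the other times, and that of the 24 falls -0.74 and -0.25. Since the genes were chosen for passing at ZT12, larger values there are part of the choice.

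**Figure D5:**
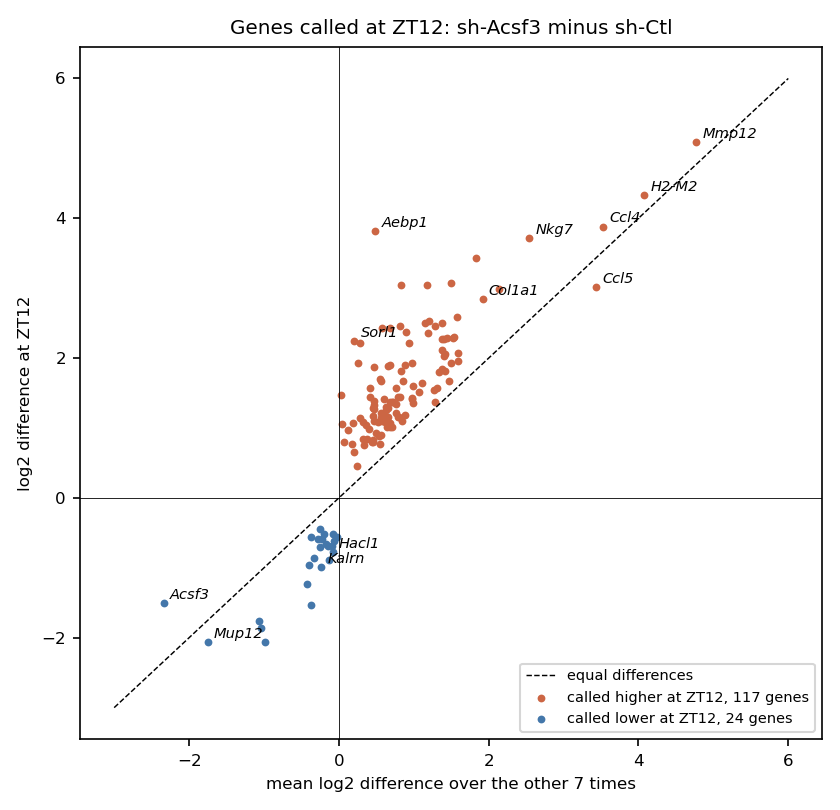
Each point is 1 of the 141 genes called at ZT12, with the mean log2 difference over the other 7 times on the x axis and the ZT12 difference on the y axis. All points lie in the quadrants of equal sign, and all but 2 (Acsf3 and Ccl5) lie farther from 0 at ZT12 than over the other times, as the choice of genes at ZT12 favours.

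The 21 ZT12 genes that did not pass over the other times were 14 rises and 7 falls. The 10 genes with the smallest p for a difference between ZT12 and the other times were Hacl1, Ogfod3, Pml, Prss8, Kalrn, Gm43609, Atraid, Fgf21, Sorl1 and Gdf2, none of which passed. Hacl1 differed by -0.77 at ZT12 and by -0.08 over the other times. Kalrn differed by -0.99 and -0.24. Pml, which builds nuclear bodies, was at 3.75, 6.13, 4.39 and 3.82 CPM in sh-Ctl and 11.5, 9.81, 9.24 and 6.41 CPM in sh-Acsf3, with no overlap, and differed by 1.06 ± 0.26 at ZT12 against 0.04 over the other times. The ZT12 call of Pml ended without any 1 of sh-Ctl replicates 1 and 4 and sh-Acsf3 replicate 1 (log2 0.94 to 0.99, adjusted p 0.0531 to 0.149). Sorl1, a sorting receptor, was at 0.442, 0.919, 0.627 and 0.545 CPM in sh-Ctl and 5.12, 2.03, 1.09 and 4.08 CPM in sh-Acsf3 (2.24 ± 0.56), against 0.20 over the other times. The call of Sorl1 ended without any 1 of sh-Ctl replicates 1 and 4 and sh-Acsf3 replicates 1 and 4 (log2 1.84 to 2.18, adjusted p 0.0506 to 0.265). Gdf2 differed by 1.45 and 0.41.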

How the data were processed

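Liver RNA of 64 samples was profiled by BRB-seq, and the authors deposited 1 table of UMI counts per gene, not normalized, for 55487 genes. Reads were aligned with STAR to GRCm38 (mm10), per the submitters' processing notes. Tool versions, the annotation, the merging of UMIs and the use of strand are not given in the sources used here. Of the genes, 23436 had at least 1 UMI. Overlapping or antisense genes and near copies can therefore share UMIs.

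The counts were tested with edgeR 4.0.16 in R 4.3.3 (TMM scaling, filterByExpr with a minimum count of 10 and a minimum total of 15, robust quasi-likelihood fit). This left 10097 genes. The fit used all 64 libraries with 1 mean for each of the 16 groups (48 residual degrees of freedom, common biological coefficient of variation 0.189). Contrasts were the ZT12 difference (sh-Acsf3 minus sh-Ctl), the mean of the same difference over the other 7 times, and the former minus the latter. A call is a Benjamini-Hochberg adjusted p under 0.05 over all tested genes. The SE is the absolute log2 difference divided by the square root of F, and p-values are two-sided. Every pair of replicates at ZT12 differed by more than sampling noise (chi-square over degrees of freedom of at least 4.94). The fits were tested on simulated data.

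The members and the 59 gene lists were chosen with earlier results of these data known. Named genes were Acsf3, Saa1, the 15 largest rises and 15 largest falls among calls with a mean of at least 5 CPM, at most 4 of every list, taken by p, the clock lists whole, and the 10 genes with the smallest p for ZT12 against the other times. The text names a selection of these (some members are not reported here), and 31 further genes were chosen after their values were seen. Positions are from GENCODE M21 on GRCm38, which holds 10095 of the tested genes, and promoters from RefSeq GRCm38.p6. Totals of 1.72 to 4.47 M UMIs at ZT12 limit precision at low levels. Other settings were scaling by RLE or by library size alone, no filter, a mean of at least 5 CPM, DESeq2 1.42.0, limma-voom (limma 3.58.1), the 8 ZT12 libraries alone, the replicate number as a block, and leaving out libraries. Figures were drawn with matplotlib 3.10.9.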

Additional observations from a re-analysis of the deposited data

Results flagged for a closer look

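Within each group of 4 at ZT12, the highest and lowest library were compared with the rest for the genes and list sums looked at, which include those named above. In 28 of 284 groups (9.86%) 1 library passed Dixon's 95% critical value. The measure was its distance from the nearest of the other 3, as a share of the group's range. For normal spreads chance would give about 1 in 20. Many of these genes were chosen with their values known, and some hold only a few UMIs. The share is therefore a description and cannot be set against chance.

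The sh-Ctl replicate 2 was far above its group in acute-phase genes: Saa1 at 4204 CPM against 30.2 to 47.7 CPM in the others, Saa2 at 1481 CPM against 7.63 to 10.7 CPM, Saa3 at 834 CPM against 19.4 to 25.9 CPM, Orm2 at 2334 CPM against 6.59 to 10.6 CPM and Itih4 at 4141 CPM against 805 to 937 CPM. It was also high in the summed markers of monocytes, neutrophils and dendritic cells, at 60.6 CPM against 27.8 to 32.0 CPM. The sh-Acsf3 replicate 2 was far above its group in the summed exocrine pancreas markers, at 3194 CPM against 5.97 to 32.1 CPM, and in Cela3b, at 218 CPM against 0.427 to 2.72 CPM. It was also high in Saa2 (28.4 CPM against 7.25 to 10.49 CPM) and Cry2 (19.6 CPM against 15.1 to 15.4 CPM).

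The sh-Acsf3 replicate 1 stood alone in 8 genes. It was the highest in Lpl (95.1 CPM against 20.4 to 31.5 CPM), Cd36 (38.4 CPM against 14.2 to 18.1 CPM), Acot2 (14.5 CPM against 2.72 to 4.08 CPM), Fgf21 (8.53 CPM against 0.543 to 1.35 CPM), Ly6d (33.3 CPM against 2.91 to 5.41 CPM), Col6a3 (23.0 CPM against 6.42 to 8.15 CPM) and Dcn (326 CPM against 218 to 227 CPM), and the lowest in Fn1 (523 CPM against 751 to 783 CPM).

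The remaining single values were C1qa at 45.6 CPM in sh-Acsf3 replicate 3, Npas2 at 0.583 CPM in sh-Acsf3 replicate 4 and 0.306 CPM in sh-Ctl replicate 2 (0 in the other 3 of each group), Arntl at 1.77 CPM, Fbn1 at 0.662 CPM, H2-M2 at 0.221 CPM and, as a lowest value, Mlycd at 67.1 CPM in sh-Ctl replicate 1, and Ciita at 3.27 CPM, Dbp at 171 CPM and Rora at 67.6 CPM in sh-Ctl replicate 4.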

How the results depend on the processing

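The call of Acsf3 held in every setting tried, with log2 differences from -1.74 to -1.37, and no gene named and called, in either fit, changed sign. The number of genes called at ZT12 (141) ranged from 44 (without sh-Acsf3 replicate 1) to 276 (without sh-Acsf3 replicate 2) when 1 library was left out. It was 241 (183 higher, 58 lower, 116 of them among the 141) without both the Saa1-high and the pancreas-RNA library, 64 (59 higher, 5 lower, 50 shared) in a fit of the 8 ZT12 libraries only, and 453 (302 higher, 151 lower, 131 shared) without the gene filter, a fit over 23436 genes. The cause of that last change was not tested. Without the filter 81 genes differed between ZT12 and the other times, against 0 in each other setting in which this was tested, every fit that left out 1 library included (the fits of the 8 ZT12 libraries hold no other times). With a mean of at least 5 CPM, 673 genes were called over the other times, against 1032, in a fit of fewer genes. With RLE size factors, library size only, the 5 CPM filter, DESeq2 and limma-voom the ZT12 count was 140, 160, 97, 169 and 110. Deviations of same-numbered libraries correlated at 0.0687, -0.0572, -0.0293 and 0.0971, so the numbers were not taken to pair the samples. With the replicate number as a block the ZT12 count was 175 (134 higher, 41 lower), and 73 (64 higher, 9 lower) in the 8 libraries with the replicate block. Of 79 named genes called at ZT12, 43 lost the call without sh-Acsf3 replicate 1. Depth was lower in each sh-Acsf3 library than in each sh-Ctl library at ZT12, so depth and treatment cannot be told apart there, and genes under about 1 CPM rest on a few UMIs a library.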
